A study of Mus musculus with 8 samples.

Results

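The 32 genes described here encode the enzymes of glycolysis, the transporters that bring glucose into cells, the proteins that handle lactate and pyruvate, and a set of hypoxia genes. They were taken by name from a list, and all 32 were found among the 49315 deposited gene identifiers. All 32 had enough counts to be tested, among 16760 genes tested in all. They were described in 4 classes: 5 muscle isozymes, 10 non-muscle isozymes, 14 genes expressed in muscle and elsewhere, and 3 hypoxia genes.

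Glycolysis splits glucose into pyruvate in a chain of cytosolic enzymes, and most steps have isozymes encoded by separate genes. Skeletal muscle uses its own forms of the glucose transporter, phosphofructokinase, phosphoglycerate mutase and enolase, while dividing cells and epithelia use others. Pyruvate either enters mitochondria through pyruvate dehydrogenase or is reduced to lactate, which leaves the cell with a proton. The transcription factor HIF-1 raises many of these genes when oxygen is low, and its alpha subunit is controlled mainly by protein breakdown. The mouse esophagus has a stratified squamous epithelium and a thick coat of skeletal muscle, so its RNA holds both sets of isozymes.

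RNA came from whole esophagi of male mice aged 8 weeks. EoE33 mice (4 libraries) carry a transgene that overexpresses the alarmin cytokine IL-33 in the esophagus, which the title of the study places in the epithelium, and wild type mice (4 libraries) were their littermates. Both groups were on the C57BL/6J strain, and each library is labelled as a separate sample, so p-values measure the spread between these samples. The promoter of the transgene is not given in the sources used here. The question behind the comparison is how overexpressed IL-33 changes esophageal transcripts. Levels are in CPM, counts relative to the scaled depth of each library.

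Depth lay between 17726292 and 22271409 counts in EoE33 libraries, and between 22183337 and 24070822 counts in wild type libraries. Il33 had 354, 393, 369 and 367 CPM in EoE33, against 123, 127, 165 and 99.7 CPM in wild type, with no overlap between the groups. By edgeR's quasi-likelihood test, 63.4% of all tested genes passed an adjusted p of 0.05, and the median log2 fold change of all tested genes was −0.01. All 15 skeletal muscle markers and the squamous keratins Krt4 and Krt13 were detected in both groups. Summed over 15 genes, the skeletal muscle markers had 10382 to 13552 CPM in EoE33, against 39516 to 42894 CPM in wild type. The 6 basal keratinocyte markers summed to 15572 to 19518 CPM in EoE33, against 2570.0 to 3659.6 CPM in wild type. Of the 6 suprabasal keratinocyte markers 4 fell and 1 rose, and log2 fold changes were −2.25 for Krt4 and −0.96 for Krt13. The 1 that rose was Krt6a, with 8029 to 10754 CPM in EoE33, against 78.0 to 106 CPM in wild type (log2 fold change 6.62). All 6 summed to 22339 to 42922 CPM in EoE33, against 50673 to 89266 CPM in wild type. The EoE33 sums thus hold the rise of Krt6a. Wild type replicate 3 held 1071 CPM of 5 airway markers, against 6.67 to 7.42 in the other wild type libraries and 0.715 to 3.40 in EoE33. Wild type replicate 1 held 135 CPM of 5 liver markers, against 4.45 to 10.3 in the other wild type libraries. Without these 2 wild type libraries the member genes gave the same numbers of calls as with them. In bulk RNA, fewer cells of a type and less RNA per cell cannot be told apart.

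Of the 32 genes, 14 were higher in EoE33 and 10 lower, beside 31.3% and 32.1% of all tested genes, and 8 were not called (edgeR adjusted p under 0.05). These 24 called genes stand beside 63.4% of all tested genes, so their number alone is not a result about these genes. The median log2 fold change of the 32 genes was 0.13, beside −0.01 over all tested genes. The direction differed by class: all 5 muscle isozymes fell, 7 of 10 non-muscle isozymes rose and none fell. Of the 14 genes expressed in muscle and elsewhere, 6 rose and 5 fell. Of the 3 hypoxia genes, only Hif1a rose. In 13 of the genes every EoE33 library exceeded every wild type library, beside 29.6% of all tested genes, and in 10 every EoE33 library was lower, beside 29.9%. Groups overlapped in the other 9, while 59.5% of all tested genes had no overlap either way.

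**Figure D1:**
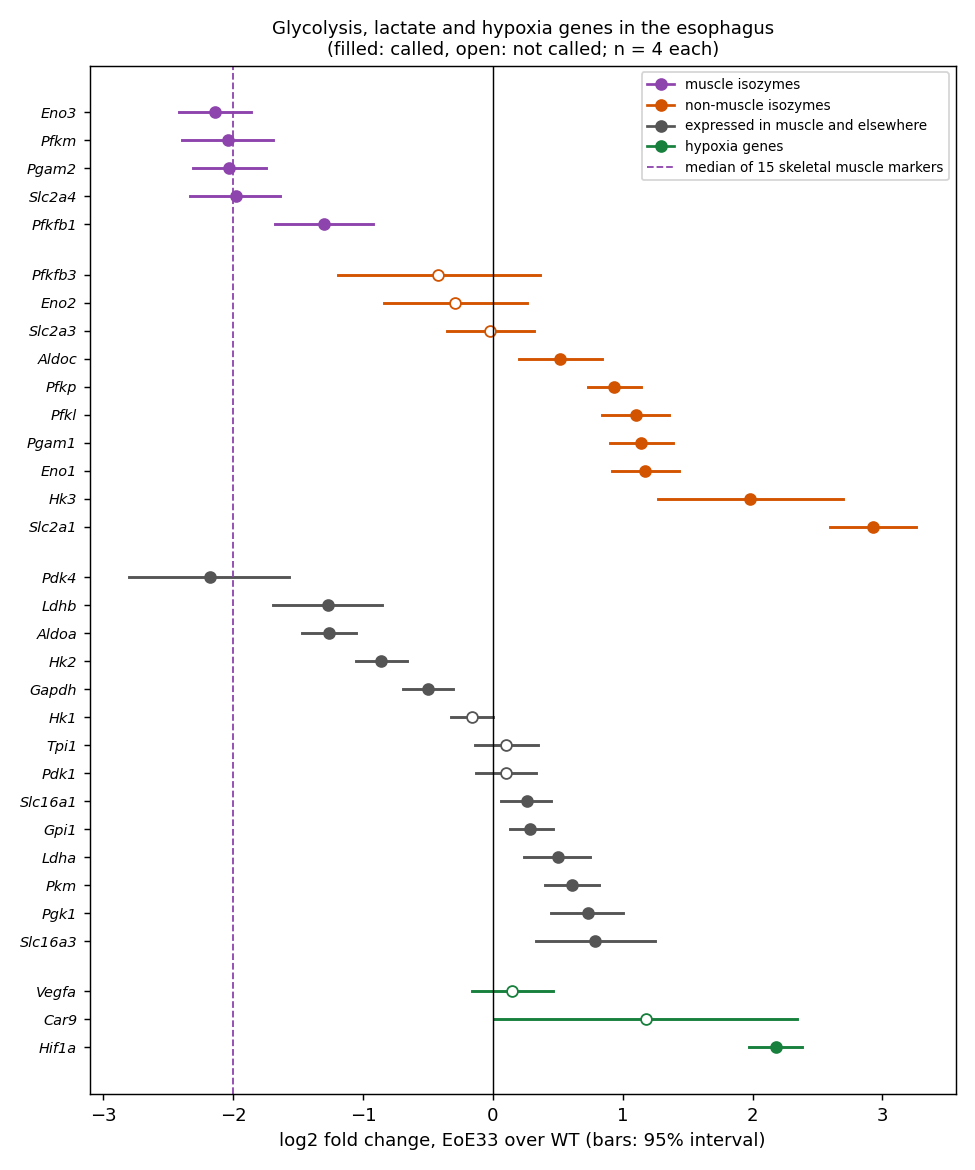
Log2 fold change of EoE33 over wild type for the 32 genes (x axis), with 95% intervals as bars and genes in rows by class. Filled points passed an adjusted p of 0.05 and open points did not, and the dashed line marks −2.00, the median of the 15 skeletal muscle markers. The muscle isozymes lie between −2.14 and −1.30, and the called non-muscle isozymes between 0.52 and 2.93.

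Promoter windows are shown for the pairs Eno1 and Eno3, and Pgam1 and Pgam2, whose muscle and non-muscle isozymes moved in opposite directions. Slc2a1, the member with the largest rise, is shown too. The other non-muscle enolase, Eno2, did not pass, and its windows are not shown. Phosphofructokinase also moved in opposite directions, and its windows are not shown to keep the set small. The windows run from 250 bases before to 50 after a RefSeq start site (GRCm38.p6), and 30 of the 32 genes, all but Slc2a3 and Slc2a4, had at least one. Capitals mark ACGTG and GCGTG, the core letters that HIF binds, and CAGCTG, an E-box of the kind that myogenic factors bind, all on both strands. A match is a description and not a binding site.
Eno1, chr4:150236458-150236757, plus strand, the most upstream of 3 starts: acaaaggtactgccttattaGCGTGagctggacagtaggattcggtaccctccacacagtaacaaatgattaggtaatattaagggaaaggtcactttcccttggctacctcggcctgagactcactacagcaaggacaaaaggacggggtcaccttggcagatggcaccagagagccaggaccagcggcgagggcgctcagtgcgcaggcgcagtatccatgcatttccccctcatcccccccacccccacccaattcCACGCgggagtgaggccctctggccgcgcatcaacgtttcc
Eno3, chr11:70656926-70657225, plus strand: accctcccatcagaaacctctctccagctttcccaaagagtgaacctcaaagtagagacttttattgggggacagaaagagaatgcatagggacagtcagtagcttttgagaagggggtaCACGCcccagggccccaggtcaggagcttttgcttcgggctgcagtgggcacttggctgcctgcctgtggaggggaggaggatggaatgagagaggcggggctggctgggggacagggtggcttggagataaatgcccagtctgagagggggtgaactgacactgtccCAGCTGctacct
Pgam1, chr19:41911621-41911920, plus strand: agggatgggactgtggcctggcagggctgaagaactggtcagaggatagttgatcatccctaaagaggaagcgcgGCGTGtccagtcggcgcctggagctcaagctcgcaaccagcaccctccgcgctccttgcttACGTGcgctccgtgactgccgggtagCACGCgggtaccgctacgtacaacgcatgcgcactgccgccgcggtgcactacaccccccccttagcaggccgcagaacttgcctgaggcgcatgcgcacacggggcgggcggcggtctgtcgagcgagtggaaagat
Pgam2, chr11:5803747-5804046, minus strand: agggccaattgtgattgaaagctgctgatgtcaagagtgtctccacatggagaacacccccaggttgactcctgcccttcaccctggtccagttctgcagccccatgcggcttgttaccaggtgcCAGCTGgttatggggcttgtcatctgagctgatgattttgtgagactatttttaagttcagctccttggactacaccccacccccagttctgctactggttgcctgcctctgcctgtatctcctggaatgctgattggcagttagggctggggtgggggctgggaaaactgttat
Slc2a1, chr4:119108495-119108794, plus strand: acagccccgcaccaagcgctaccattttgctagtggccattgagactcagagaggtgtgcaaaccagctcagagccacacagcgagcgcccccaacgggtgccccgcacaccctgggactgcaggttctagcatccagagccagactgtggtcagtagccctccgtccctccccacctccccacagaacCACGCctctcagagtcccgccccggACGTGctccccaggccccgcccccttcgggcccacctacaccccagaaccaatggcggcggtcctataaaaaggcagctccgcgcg
The HIF core letters occurred in 12 of 13 windows of non-muscle isozymes and in 5 of 10 windows of muscle isozymes, beside 43.8% of all 32851 promoter windows. Counted by gene, they occurred in 8 of 9 non-muscle isozymes and in 3 of 4 muscle isozymes, so most of the contrast between the windows is not seen between the genes. Genes expressed in muscle and elsewhere held them in 14 of 20 windows and in 12 of 14 genes. CAGCTG occurred in 0 of 13 windows of non-muscle isozymes and in 3 of 10 windows of muscle isozymes, beside 16.3% of all windows, or in 0 of 9 and 3 of 4 genes. It was not particular to muscle isozymes. Genes expressed in muscle and elsewhere held it in 4 of 20 windows and in 4 of 14 genes. Hypoxia genes held it in 2 of 4 windows and in 2 of 3 genes. The share over all windows was not counted by gene. The palindrome CACGTG, which holds ACGTG on both strands, was in none of the 5 windows shown, and it occurred in 7.15% of all windows. Windows of 1 gene can overlap, so they are not separate observations, and GC content also differed, from 53.3% in the Pgam2 window to 65.3% in the Slc2a1 window.

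The 5 muscle isozymes all fell, 4 of them by about as much as the skeletal muscle markers. Of the 15 markers 14 fell, with a median log2 fold change of −2.00, and Acta1, the skeletal muscle actin, and Myh1, a fast myosin, had log2 fold changes of −1.58 and −1.99. The level of muscle transcripts and genotype cannot be told apart in these libraries. Eno3, the muscle enolase (chr11:70657202-70662513, GRCm38 as all positions here), had 295, 249, 259 and 362 CPM in EoE33, against 1226, 1303, 1374 and 1225 CPM in wild type. Each EoE33 library was far below each wild type library, with EoE33 replicate 4 the highest of its group. The gene was 4.40-fold lower in EoE33 (log2 fold change −2.14 with a standard error of 0.13, adjusted p = 1.67e-06 by edgeR).

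Pgam2, the muscle phosphoglycerate mutase, had 72.0, 54.5, 59.0 and 80.9 CPM in EoE33, against 273, 290.3, 265 and 261 CPM in wild type, and was 4.09-fold lower. Again EoE33 replicate 4 was highest and replicate 2 lowest within EoE33, and the wild type libraries differed little. Pfkm, the muscle phosphofructokinase, had 212, 146, 176 and 242 CPM in EoE33, against 820.4, 848, 699 and 826 CPM in wild type. Its log2 fold change was −2.04 (standard error 0.15, edgeR adjusted p = 6.04e-06), and its groups did not overlap. Exons of Pfkm overlap Senp1 on the other strand, which averaged 54.7 CPM in EoE33 and 38.3 CPM in wild type, well under Pfkm in both groups.

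Slc2a4 encodes GLUT4, the insulin-responsive glucose transporter of muscle and fat. Its level was 44.2, 33.5, 35.5 and 53.2 CPM in EoE33, against 176, 170.3, 139 and 173 CPM in wild type. The groups stood well apart, and wild type replicate 3 was lower than the other wild type libraries. The log2 fold change of −1.98 (standard error 0.15) was close to the −2.00 of the muscle markers' median. Adipocyte markers also fell in all 6 members, and summed to 101 to 316 CPM in EoE33, against 185 to 1222 CPM in wild type. Among wild type libraries, Slc2a4 was 176 and 173 CPM in replicates 1 and 4, where adipocyte markers summed to 1203 and 1222 CPM, 170.3 CPM in replicate 2, where they summed to 443 CPM, and 139 CPM in replicate 3, where they summed to 185 CPM. The part of fat in the fall of Slc2a4 was not tested.

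Pfkfb1 encodes a liver and muscle form of the bifunctional enzyme that sets fructose 2,6-bisphosphate, an activator of phosphofructokinase. It was the lowest of the 5 muscle isozymes, with 4.34, 3.51, 3.71 and 3.84 CPM in EoE33, against 12.5, 8.25, 7.82 and 9.41 CPM in wild type. Wild type replicate 1, the library with liver transcripts, was the highest, and the log2 fold change of −1.30 was −1.14 without it (edgeR adjusted p = 0.000281). The gene overlaps Apex2 on the other strand, at 8.29 CPM in EoE33 and 6.00 CPM in wild type, and whether strand was used in counting is not given in the sources used here.

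At 4 steps where a muscle isozyme fell, glucose entry, phosphofructokinase, phosphoglycerate mutase and enolase, a non-muscle isozyme rose. Slc2a1 (chr4:119108711-119137983) encodes GLUT1, a glucose transporter of the blood-brain barrier and basal keratinocytes. It had 384, 532, 376 and 427 CPM in EoE33, against 60.5, 53.0, 64.7 and 47.0 CPM in wild type. The lowest EoE33 library was several times the highest wild type library, and EoE33 replicate 2 was the highest. The rise was 7.63-fold (log2 fold change 2.93 with a standard error of 0.15, adjusted p = 9.12e-07 by edgeR), the largest among the 32 genes. All 6 basal keratinocyte markers rose, with log2 fold changes between 0.98 and 4.06 and a median of 1.59. Among them Krt14 and Krt5, keratins of the basal layer, had 4.06 and 1.97. All 7 cell cycle markers rose too, with log2 fold changes between 2.12 and 3.12. The part of basal or dividing cells in the rise of Slc2a1 was not tested.

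Eno1, the broadly expressed enolase (chr4:150236721-150248879), had 942, 1198, 966 and 956 CPM in EoE33, against 467, 430.4, 512 and 389.6 CPM in wild type. EoE33 replicate 2 stood above the other EoE33 libraries, and the groups did not overlap. The rise was 2.26-fold (log2 fold change 1.17 with a standard error of 0.11, adjusted p = 2.47e-05 by edgeR). Of the 150-base windows of the longest Eno1 transcript, 48.99% also occur in Eno1b or Gm4735, near-identical copies that together had 3.31 CPM in EoE33 and 1.44 CPM in wild type. How reads matching several places were counted is not given in the sources used here, so the level of Eno1 is uncertain.

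Pgam1, the non-muscle phosphoglycerate mutase, rose 2.21-fold, with 156, 205, 166 and 163 CPM in EoE33, against 80.5, 76.7, 88.0 and 67.5 CPM in wild type. The pattern over libraries was that of Eno1, with EoE33 replicate 2 highest. A pseudogene, Pgam1-ps2, shares 37.88% of its windows and had 0.879 CPM in EoE33 and 0.502 CPM in wild type. The liver and platelet phosphofructokinases Pfkl and Pfkp rose 2.14-fold and 1.91-fold. Pfkl had 193, 266, 192 and 197 CPM in EoE33, against 106, 97.6, 102 and 90.0 CPM in wild type, and Pfkp had 160.1 to 208 CPM in EoE33, against 89.5 to 101 CPM in wild type. In both genes every EoE33 library was above every wild type library.

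**Figure D2:**
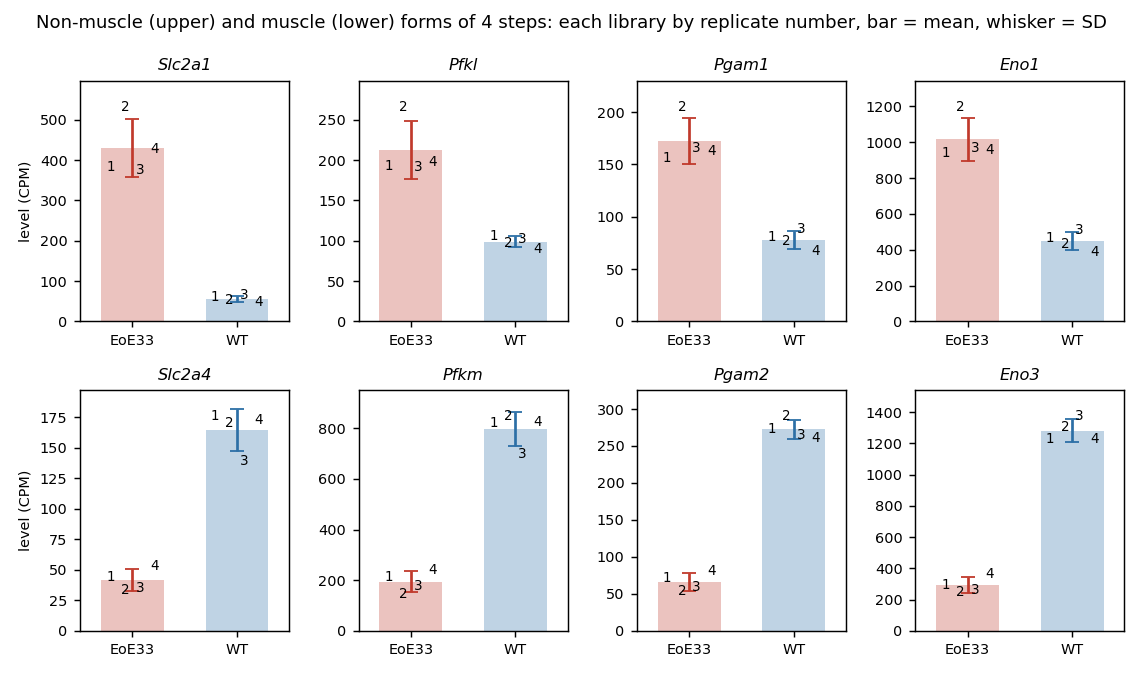
Levels in CPM (y axes, from 0) of non-muscle isozymes (upper row) and muscle isozymes (lower row) of 4 steps, in EoE33 and wild type (x axes). Digits are libraries by replicate number, bars are group means and whiskers the SD (n = 4 each). The groups do not overlap in any of the 8 genes, and EoE33 libraries are above wild type in the upper row and below it in the lower row.

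Hk3 and Aldoc, both of low level, rose. Hk3, a hexokinase of granulocytes and other myeloid cells, had 6.53, 6.25, 9.74 and 5.04 CPM in EoE33, against 1.19, 1.14, 1.90 and 2.74 CPM in wild type (log2 fold change 1.98 with a standard error of 0.32, adjusted p = 0.000533 by edgeR). EoE33 replicate 3 was the highest library, and it also had the highest summed level of 6 neutrophil markers, 219 CPM. The order differed in other libraries: EoE33 replicates 1 and 2 had 95.3 and 192 CPM of these markers, and 6.53 and 6.25 CPM of Hk3. In wild type, Hk3 was highest in replicate 4 and the markers in replicate 3. The markers summed to 95.3 to 219 CPM in EoE33, against 9.87 to 15.1 CPM in wild type. All 6 neutrophil markers rose, of which Cxcr2 and Csf3r had the highest wild type levels (log2 fold changes 1.55 and 4.60), and all 7 macrophage markers rose too. The part of these cells in the rise of Hk3 was not tested. Exons of Hk3 overlap Unc5a on the other strand, which averaged 23.7 CPM in EoE33 and 6.28 CPM in wild type, so the change in Hk3 is uncertain. Aldoc, the brain-type aldolase, had 17.4, 20.3, 13.6 and 19.9 CPM in EoE33, against 13.2, 12.7, 13.2 and 10.4 CPM in wild type, a 1.44-fold rise with a narrow gap between the groups.

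Slc2a3, Eno2 and Pfkfb3 were the 3 non-muscle isozymes that did not pass. Slc2a3 encodes GLUT3, a transporter of neurons and white blood cells. It had 13.3, 12.0, 19.6 and 13.7 CPM in EoE33, against 15.1, 15.4, 13.3 and 15.6 CPM in wild type, with a log2 fold change of −0.02 (95% interval −0.35 to 0.32, edgeR adjusted p = 0.934). The sign turned under other settings, and EoE33 replicate 3 was the highest library. Eno2, the neuronal enolase, was near the low end of the list with 2.16 to 3.24 CPM in EoE33, against 2.16 to 4.36 CPM in wild type. Its log2 fold change was −0.29 (95% interval −0.84 to 0.26, edgeR adjusted p = 0.315). In 6 of 7 enteric neuron and Schwann cell markers EoE33 was lower, with summed levels of 17.1 to 41.0 CPM in EoE33, against 42.4 to 95.3 CPM in wild type.

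Ratios of isozymes within a library set the 2 forms side by side, and a change of form within cells and a change in the share of muscle and epithelium cannot be told apart in them. They were computed per kilobase of exon and have no test, since the genes were chosen with results known. Eno1 over Eno3 was 1.03, 1.55, 1.21 and 0.855 in EoE33, against 0.123, 0.107, 0.121 and 0.103 in wild type. Enolase transcripts were thus mostly the muscle form in each wild type library and nearer to equal in EoE33. The mean ratio was 10.2 times that of wild type, a factor that does not depend on gene length. Pgam1 over Pgam2 was 0.853 to 1.59 in EoE33, against 0.110 to 0.141 in wild type, a factor of 9.35 between means. Pfkl plus Pfkp over Pfkm was 0.592 to 1.27 in EoE33, against 0.0816 to 0.109 in wild type. The transporter pair stood out most, with Slc2a1 over Slc2a4 at 7.96 to 15.8 in EoE33, against 0.269 to 0.463 in wild type. In all these pairs the highest ratio of the 8 libraries was that of EoE33 replicate 2. With the length of the longest transcript in place of all exons, Eno1 over Eno3 averaged 2.77 in EoE33 and 0.270 in wild type, so that Eno1 was then the main form in each EoE33 library, while the factor between groups stayed at 10.2.

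The 14 genes expressed in muscle and elsewhere went in both directions. Aldoa encodes the aldolase of muscle and most other tissues and was the most abundant member per kilobase of exon, at 648 CPM per kilobase in EoE33 and 1556 in wild type. It had 1891, 1824, 1698 and 2134 CPM in EoE33, against 4595, 4682, 4567 and 4279 CPM in wild type, and was 2.40-fold lower (log2 fold change −1.26 with a standard error of 0.09, adjusted p = 5.13e-06 by edgeR). All EoE33 libraries lay below all wild type libraries, and the fall was smaller than that of the muscle isozymes Eno3, Pgam2 and Pfkm. Gapdh, the glyceraldehyde phosphate dehydrogenase often used as a reference gene, also fell, with 1708, 1948, 1605 and 1739 CPM in EoE33, against 2451, 2539, 2549.6 and 2344 CPM in wild type. Its fall of 1.41-fold had an edgeR adjusted p of 0.000737. Copies of Gapdh elsewhere in the genome share 10.32% of the windows of its longest transcript, and 41 of them summed to 8.98 CPM in EoE33 and 14.4 CPM in wild type. Iffo1, which overlaps it on the other strand, averaged 11.3 CPM in EoE33 and 21.1 CPM in wild type.

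Hexokinases 1 and 2 trap glucose as its phosphate, and Hk2 is the insulin-responsive form of muscle and fat that many dividing cells also use. Hk2 fell, with 186, 164, 156 and 186 CPM in EoE33, against 317, 342, 309.9 and 284 CPM in wild type, 1.81-fold lower and without overlap. Hk1 did not pass, with 172 to 192 CPM in EoE33, against 180.2 to 211 CPM in wild type, a log2 fold change of −0.16 and an edgeR adjusted p of 0.0747. It passed with library size as the only scaling (edgeR adjusted p = 0.0320), and without wild type replicate 4 (edgeR adjusted p = 0.0281).

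Of the other enzymes between the hexose phosphates and pyruvate, Pgk1, Pkm and Gpi1 rose and Tpi1 did not pass. Pgk1, a phosphoglycerate kinase that yields ATP, had 483, 651, 456 and 480.2 CPM in EoE33, against 318, 318, 337 and 278 CPM in wild type, a 1.66-fold rise (edgeR adjusted p = 0.000693). Near-identical sequence in Pgk1-rs7 and Gm5537 covers 66.05% of the windows of its longest transcript, and those genes summed to 0.201 CPM in EoE33 and 0.170 CPM in wild type. Pkm, the pyruvate kinase whose splice forms M1 and M2 are not separated by counts per gene, rose 1.53-fold, with 1596, 2033, 1708 and 1652 CPM in EoE33, against 1147, 1182, 1159.8 and 1082 CPM in wild type. Gm49759, which overlaps it on the same strand, averaged 36.3 CPM in EoE33 and 17.2 CPM in wild type. Gpi1, the glucose phosphate isomerase, rose 1.23-fold with a narrow gap between the groups, 514 to 598 CPM in EoE33, against 430.0 to 457 CPM in wild type. Tpi1, the triose phosphate isomerase, overlapped between groups and had a log2 fold change of 0.10 (95% interval −0.14 to 0.35, edgeR adjusted p = 0.431).

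Of the lactate genes among the members, Ldha, Slc16a3 and, narrowly, Slc16a1 rose, and Ldhb fell. Ldha encodes the lactate dehydrogenase subunit that prevails in muscle and fast-growing cells. It had 1194, 1603, 1229 and 1171 CPM in EoE33, against 954, 935, 952 and 838 CPM in wild type, a 1.41-fold rise without overlap (edgeR adjusted p = 0.00397). Ldhb encodes the heart-type subunit and fell, with 16.4, 14.6, 17.3 and 24.0 CPM in EoE33, against 42.6, 34.4, 42.2 and 55.7 CPM in wild type, 2.42-fold lower (edgeR adjusted p = 0.000341). Ldha over Ldhb per kilobase was 23.1 to 52.2 in EoE33, against 7.14 to 12.9 in wild type, so Ldha was the main form in every library.

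Slc16a3 encodes MCT4, the lactate exporter of glycolytic cells, and had 115, 222, 147 and 128 CPM in EoE33, against 95.5, 90.8, 94.6 and 72.4 CPM in wild type. EoE33 replicate 2 was the highest by a wide margin. The log2 fold change was 0.79 (standard error 0.20, edgeR adjusted p = 0.00785), or 0.56 without EoE33 replicate 2, and it passed without each library in turn. Slc16a1 encodes MCT1, a monocarboxylate transporter in most tissues, and passed narrowly with 74.2, 87.4, 83.5 and 73.6 CPM in EoE33, against 63.1, 62.4, 75.6 and 65.7 CPM in wild type. Its groups overlapped, and its edgeR adjusted p of 0.0266 was 0.0560 to 0.0801 without wild type replicate 1, 2 or 4 or EoE33 replicate 2 or 3.

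Pdk1 and Pdk4 encode kinases that switch off pyruvate dehydrogenase, Pdk1 under hypoxia and Pdk4 in fasting and fat oxidation. Pdk4 had 57.7, 48.9, 33.1 and 50.3 CPM in EoE33, against 242, 192, 132 and 297 CPM in wild type. The groups did not overlap, and wild type replicates 1 and 4 were the highest. It was 4.55-fold lower (log2 fold change −2.18 with a standard error of 0.27, adjusted p = 0.000172 by edgeR). Pdk1 overlapped between groups, with 75.2 to 101 CPM in EoE33, against 76.5 to 83.8 CPM in wild type (log2 fold change 0.10, 95% interval −0.13 to 0.33, edgeR adjusted p = 0.430).

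Pfkfb3, the inducible form of the fructose 2,6-bisphosphate enzyme, varied widely among wild type libraries. It had 53.0, 60.0, 35.5 and 43.3 CPM in EoE33, against 88.9, 45.6, 33.6 and 87.6 CPM in wild type, and did not pass (log2 fold change −0.42, 95% interval −1.19 to 0.36, edgeR adjusted p = 0.307). As with Pdk4, wild type replicates 1 and 4 were the high libraries. In those replicates the 6 adipocyte markers summed to 1203 and 1222 CPM, against 443 and 185 CPM in wild type replicates 2 and 3, and the 7 smooth muscle markers summed to 3329 and 4108 CPM, against 2204 and 1103 CPM. The part of fat or smooth muscle in the spread of these genes was not tested.

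Of the hypoxia genes, Hif1a rose, and Car9 and Vegfa, which are among its usual targets, did not pass. HIF-1 also raises many others of the 32 genes when oxygen is low. Among all 32, 14 were higher and 10 lower, beside 31.3% and 32.1% of all tested genes. Hif1a (chr12:73901375-73947530), the alpha subunit of HIF-1, had 394, 471, 464 and 385 CPM in EoE33, against 92.8, 94.2, 102 and 89.3 CPM in wild type. Every EoE33 library was several times every wild type library, and the spread within groups was small. The rise was 4.52-fold (log2 fold change 2.18 with a standard error of 0.09, adjusted p = 5.17e-07 by edgeR), the smallest adjusted p of the 32 genes. Exons of Hif1a and Slc2a1 overlap Gm15283 and Gm12868 on the other strand, which averaged 2.16 and 1.39 CPM in EoE33 and 0.450 and 0.170 CPM in wild type, a small part of either gene's level. Transcript counts say nothing of the HIF-1 protein, which is set mainly by its breakdown.

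Vegfa, the main growth factor of blood vessels, had 116, 158, 102 and 102 CPM in EoE33, against 115, 109, 101 and 106 CPM in wild type. EoE33 replicates 3 and 4 lay within the wild type range, replicate 1 just above it and replicate 2 well above it. The log2 fold change was 0.15 (95% interval −0.16 to 0.46, edgeR adjusted p = 0.363), and −0.01 without EoE33 replicate 2. Car9, a carbonic anhydrase of the cell surface and a common marker of hypoxia, had 3.62, 14.3, 3.32 and 3.44 CPM in EoE33, against 3.39, 2.15, 2.54 and 2.74 CPM in wild type. EoE33 replicate 2 stood alone at 14.3 CPM, and the other EoE33 libraries were close to wild type. The log2 fold change of 1.18 (edgeR adjusted p = 0.0719) was 0.36 without EoE33 replicate 2 (edgeR adjusted p = 0.140), and the gene passed without EoE33 replicate 3 (edgeR adjusted p = 0.0493) and by DESeq2 (adjusted p = 0.0243).

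**Figure D3:**
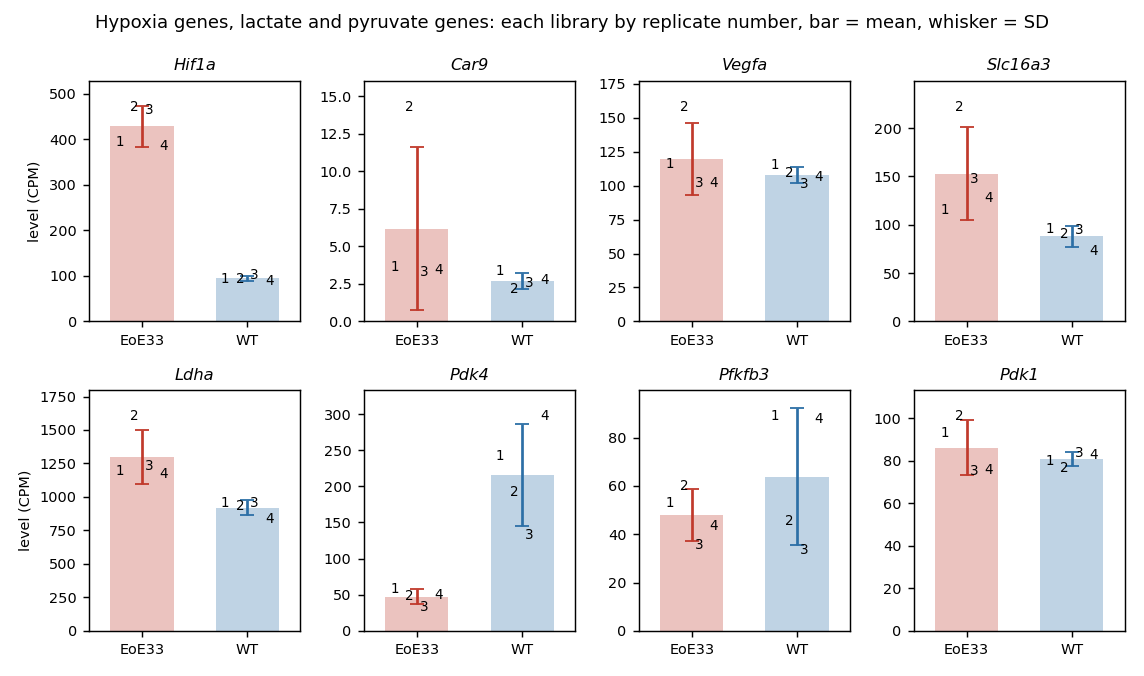
Levels in CPM (y axes, from 0) of hypoxia genes, lactate genes and regulators of pyruvate use and glycolysis, in EoE33 and wild type (x axes). Digits are libraries by replicate number, bars are group means and whiskers the SD (n = 4 each). Hif1a lies between 385 and 471 CPM in EoE33 and between 89.3 and 102 CPM in wild type, while Car9 is at 14.3 CPM in EoE33 replicate 2 and at 2.15 to 3.62 CPM in the other 7 libraries.

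EoE33 replicate 2 was the highest EoE33 library for 19 of the 32 genes and the lowest for 9. It was also the library with the lowest depth, 17726292 counts, the largest share of Chil4 counts, 11.0%, and the highest summed levels of basal keratinocyte markers, 19518 CPM, and cell cycle markers, 737 CPM. Its summed level of suprabasal keratinocyte markers was the lowest, 22339 CPM, against 28819 to 42922 CPM in the other EoE33 libraries. Leaving it out gave 13 genes higher and 10 lower.

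Other genes of the same pathways were counted from 8 lists of 102 genes, of which 91 were tested. From each list the genes named are those among the 3 with the smallest p, and any others were chosen after their values were seen. In all, 26 were higher and 38 lower in EoE33, beside 31.3% and 32.1% of all tested genes, and their median log2 fold change was −0.16. Glycogen metabolism moved one way: 10 of 15 genes fell, none rose, and the median was −1.22. Pygm, the muscle glycogen phosphorylase, had 457, 349.8, 364 and 539 CPM in EoE33, against 2053, 2096, 1799 and 1969 CPM in wild type, 4.63-fold lower. Phka1, the muscle subunit of its activating kinase, had a log2 fold change of −2.19. The 5 that did not pass were Gys2, Pygl and Phka2, which are liver forms, Pygb, the brain form, and Phkg2, with log2 fold changes between −1.02 and 0.34.

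Of the 16 tested genes for pyruvate and lactate handling, 10 fell and 3 rose, beside 32.1% and 31.3% of all tested genes. Those that fell do not all act one way: beside carrier and dehydrogenase genes they include Pdk2 and Pdk3, kinases that switch pyruvate dehydrogenase off, and Slc16a8, a lactate transporter, with log2 fold changes of −1.72, −0.29 and −1.43. The mitochondrial pyruvate carrier gene Mpc1 and the pyruvate dehydrogenase component Pdhx averaged 27.2 ± 1.21 and 18.8 ± 0.811 CPM in EoE33 and 46.6 ± 2.47 and 28.3 ± 1.01 CPM in wild type (SD, n = 4 each). Emb and Bsg, which encode the partner proteins that carry monocarboxylate transporters to the membrane, rose 3.01-fold and 1.65-fold. The third that rose was Pdp2, a phosphatase that switches pyruvate dehydrogenase on, with a log2 fold change of 0.59.

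Transporters of sugars other than the members split, with 3 of 8 tested genes higher and 3 lower. Over all tested genes 31.3% were higher and 32.1% lower. Slc2a9, a transporter of urate and sugars, had 26.0, 46.6, 29.0 and 22.8 CPM in EoE33, against 2.84, 3.03, 3.46 and 3.12 CPM in wild type, a 9.96-fold rise. Slc2a6 and the sodium-glucose cotransporter gene Slc5a1 rose 2.85-fold and 2.64-fold. Slc2a12, another facilitative transporter, was 3.30-fold lower, and Slc2a10 and Slc2a13 had log2 fold changes of −1.26 and −0.92. Among the 12 tested other glycolytic enzymes 5 rose and 4 fell, beside the same shares of all tested genes. The phosphoglucomutases Pgm2 and Pgm1 had log2 fold changes of 1.19 and −0.94, and Tigar, a fructose bisphosphatase, of −0.86. The others that rose were Adpgk, Bpgm, Pfkfb2 and Pfkfb4, with log2 fold changes between 0.38 and 0.68, and Khk fell, with a log2 fold change of −0.57.

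The rest of the hypoxia pathway did not move as a block. Of 20 other genes known to be induced by hypoxia, 9 rose and 5 fell, beside 31.3% and 32.1% of all tested genes. The other 6 did not pass, and the median log2 fold change of the 20 was 0.06. Hilpda, a lipid droplet protein gene, had 33.7, 59.7, 50.8 and 44.0 CPM in EoE33, against 3.09, 3.82, 4.06 and 3.98 CPM in wild type, a 12.6-fold rise. Ero1l, an oxidase of protein folding, rose 3.83-fold, with EoE33 replicate 2 highest at 208 CPM. The others that rose were Ndrg1, Ddit4, Edn1, Car12, Fam162a, P4ha2 and Bnip3l, with log2 fold changes between 0.35 and 1.47. Hmox1, the heme oxygenase, was 2.84-fold lower, and the other 4 that fell were Bnip3, P4ha1, Higd1a and Mxi1, with log2 fold changes between −0.73 and −0.50. Among the 9 HIF subunits and oxygen sensors, Epas1 (HIF-2 alpha), the prolyl hydroxylase gene Egln2 and the asparaginyl hydroxylase gene Hif1an fell, with log2 fold changes of −0.54, −0.50 and −0.79. Egln3, an inducible prolyl hydroxylase, and Vhl rose, with log2 fold changes of 0.81 and 0.37. Arnt, the partner of Hif1a, did not pass (−0.16, edgeR adjusted p = 0.0804).

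The pentose phosphate pathway, which branches from glucose 6-phosphate, had 3 of 7 tested genes higher and 1 lower. Shares over all tested genes were 31.3% and 32.1%. Transketolase (Tkt) averaged 454 ± 63.9 CPM in EoE33 and 257 ± 27.0 CPM in wild type (SD, n = 4 each), and Rpe and Pgd had log2 fold changes of 0.39 and 0.47. Taldo1, the transaldolase of the same branch, was the one that fell, by 0.54 on the log2 scale. Of 4 tested gluconeogenesis genes, Pck2 rose and Fbp2, the muscle fructose bisphosphatase, and Pck1 fell, with log2 fold changes of 0.73, −1.69 and −2.79. The libraries of Pck1 overlapped between groups (edgeR adjusted p = 0.0415).

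**Figure D4:**
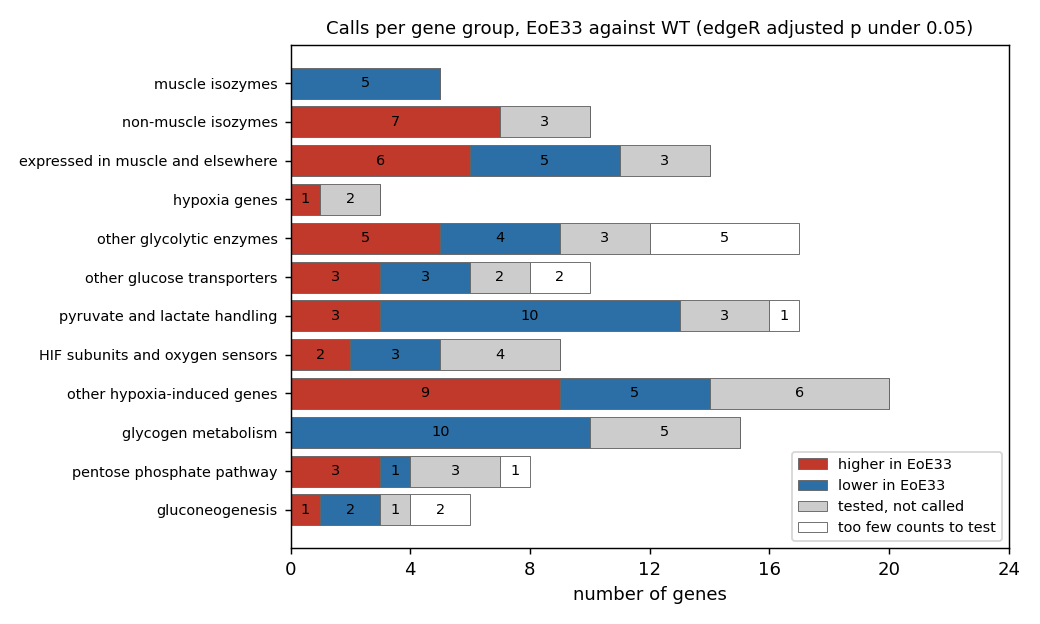
Number of genes (x axis) called higher or lower in EoE33, tested but not called, or with too few counts to test, for the 4 classes of the 32 genes and 8 further pathway lists (rows). Muscle isozymes and glycogen genes hold only falls among their called genes, 5 and 10, and non-muscle isozymes hold only rises, 7.

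The muscle level of a library, the mean log2 of CPM plus 1 over the 15 skeletal muscle markers, was 8.00 to 8.69 in EoE33, against 10.20 to 10.46 in wild type. With that level as a further term in the fit, none of the 32 genes passed by edgeR at an adjusted p of 0.05, while 2 were higher and 4 lower at an unadjusted p under 0.05, and over all tested genes 14 were higher and 0 lower (913 and 650 at an unadjusted p under 0.05). The log2 fold change was then 2.46 for Slc2a1 (standard error 0.71), 1.82 for Hif1a (0.46), 0.72 for Eno1 (0.59) and −0.98 for Eno3 (0.51). Without the term these were 2.93 (0.15), 2.18 (0.09), 1.17 (0.11) and −2.14 (0.13), with smaller standard errors. The muscle level did not overlap between the groups, so this fit cannot divide a difference between muscle level and genotype. No conclusion is drawn from the lost calls.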

How the data were processed

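Whole esophagi were sequenced as polyA RNA in paired-end mode, per the labels' protocols. The authors deposited raw counts per gene for 49315 Ensembl identifiers and 8 libraries, and 0 value columns were left unused. The submitters' processing notes name Trimmomatic 0.36, STAR 2.5.2b, featureCounts, Subread 1.5.2 and the build GRCm38. Neither the annotation release nor the handling of strand or of multi-mapping reads is given in the sources used here, so counts of overlapping and near-identical genes are uncertain. Column names do not name the mice, so columns were assigned by the column letter in each sample's description.

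GENCODE M21 (GRCm38) gave symbols, positions and lengths for 49056 identifiers. Depth is given with the results, and 3 counts correspond to 0.127 to 0.175 CPM. Genes were filtered with filterByExpr by group and scaled by TMM. The test was the quasi-likelihood F test of edgeR 4.0.16 in R 4.3.3 (glmQLFTest after a robust glmQLFit), 4 EoE33 against 4 wild type libraries, with Benjamini-Hochberg adjustment over all 16760 genes and a threshold of 0.05. The procedure was tested on simulated data in which few genes changed. In these libraries 63.4% of tested genes passed, and the simulation does not cover changes so widespread. Alternatives were other scalings and filters, DESeq2 1.42.0, limma 3.58.1 (voom), a replicate block, a muscle level term, and libraries left out. Promoter windows came from RefSeq. The members, gene lists and tests were chosen with earlier results of these data known. Some genes were named after their values were seen. By rule, all members are named, from each other list the 3 tested genes with the smallest p, and from marker lists those highest in wild type. Some genes that this rule or the lists hold are counted but not reported here by name.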

Additional observations from a re-analysis of the deposited data

Results flagged for a closer look

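Each gene was screened in each group for a library far from the other 3 by Dixon's criterion at its 95% critical value, in 64 groups of 4 libraries, and 9 were found. Chance flags about 1 in 20 groups. In 6 of the 9, EoE33 replicate 2 was the library apart. It had 266 CPM of Pfkl, against 192 to 197 CPM in the other EoE33 libraries. For Eno1 it had 1198 CPM, against 942 to 966 CPM in the others. For Pgk1 it had 651 CPM, against 456 to 483 CPM, and for Ldha 1603 CPM, against 1171 to 1229 CPM. For Car9 it had 14.3 CPM, against 3.32 to 3.62 CPM, and for Eno2 it was the lowest, with 2.16 CPM, against 3.09 to 3.24 CPM. EoE33 replicate 4 was the highest of its group for Hk1, with 192 CPM, against 172 to 175 CPM. Wild type replicate 3 was the lowest of its group for Slc2a4, with 139 CPM, against 170.3 to 176 CPM. Wild type replicate 4 was the lowest for Ldha, with 838 CPM, against 935 to 954 CPM.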

How the results depend on the processing

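Of the 24 called genes, 23 kept their call and direction under all 19 settings other than the muscle level term, and the exception was Slc16a1. Members higher in EoE33 numbered 13 to 15 and members lower 10 to 11 over those settings. With the muscle level as a term, 0 members were higher and 0 lower, 0 other pathway genes were higher and 0 lower (7 and 6 at an unadjusted p under 0.05), and 14 of all tested genes were higher and 0 lower. The muscle level does not overlap between the groups, so the fit cannot divide a difference between genotype and this term. Log2 fold changes changed sign under it for Slc2a3 (0.80), Eno2 (0.14), Hk1 (0.39), Gpi1 (−0.02), Tpi1 (−0.33), Pgk1 (−0.17), Ldha (−0.36), Pdk1 (−1.15), Slc16a1 (−0.15), Slc16a3 (−0.58), Car9 (−4.43) and Vegfa (−1.46). Slc2a3 also changed sign with DESeq2 size factors (0.00), library size without Chil4 (0.09), no filter (0.00) and DESeq2 (0.00), and lay between −0.18 and 0.07 without each library in turn. Vegfa lay between −0.01 and 0.23 without each library in turn. The cause of these was not tested. Lengths of the longest transcript gave mean ratios of 2.77 in EoE33 and 0.270 in wild type for Eno1 over Eno3, 1.22 in EoE33 and 0.135 in wild type for Pfkl plus Pfkp over Pfkm, 54.3 in EoE33 and 15.7 in wild type for Ldha over Ldhb, and 0.00524 in EoE33 and 0.00152 in wild type for Aldoc over Aldoa. Library size without Chil4 moved the median of all genes to 0.09, with 6080 genes higher and 4535 lower.

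Replicate numbers are shared by the groups, but same-numbered libraries did not deviate together (correlations 0.131, −0.128, 0.051 and −0.126). The libraries were therefore not treated as pairs in the main fit. With so few libraries these correlations cannot exclude a shared litter or batch. With the replicate block, 14 members were higher and 10 lower, and over all tested genes 4936 were higher and 5120 lower. Depth limits the low genes most: Eno2, Car9, Hk3 and Pfkfb1 lay under 15 CPM in every library.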
